A study of Mus musculus with 16 samples.

Results

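The genes described are 10 core components of acetylcholine signalling, chosen by name as the cholinergic enzymes and acetylcholine receptors of the series: the enzymes Chat, Ache and Bche, the muscarinic receptors Chrm1, Chrm2, Chrm3 and Chrm4, and the nicotinic subunits Chrna4, Chrna7 and Chrnb2. They are 10 of 39179 gene rows, and 10 of 10 passed the filter on low counts that left 18074 genes for testing. The study sequenced total RNA of neurons from the cortex and hippocampus of adult mice labelled TERT-AD, of the strain B6.129S6.SvEvTac. The animals received tamoxifen or vehicle, and the series title names activation of Tert, which encodes the telomerase reverse transcriptase. Each region has 4 libraries labelled control and 4 labelled tamoxifen, 16 in all. All 4 groups carry the TERT-AD label. The alleles behind that name, the cells in which tamoxifen acts, how neurons were isolated and which libraries share an animal are not stated in the labels.

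Acetylcholine is made by choline acetyltransferase in cholinergic neurons, released at their terminals and broken down by cholinesterases. It acts on muscarinic receptors, which couple to G proteins, and on nicotinic receptors, which are ion channels assembled from subunits. The cortex and hippocampus receive most of their cholinergic fibres from cell bodies in the basal forebrain, so the receptor transcripts lie in the target tissue while most Chat transcripts lie elsewhere. Loss of this projection is a known feature of Alzheimer's disease, and cholinesterase inhibitors are used to treat it.

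Neighbouring libraries were added, which gave 8 samples, A and B in each group, with 83527470 to 108293362 counts in genes. Nothing in the labels ties a sample to an animal of its own, so p-values reflect only how far these samples scatter, which may be technical. Levels below are CPM, counts scaled to the library's total in genes, given for sample A and then sample B. Fold changes and tests come from edgeR, with 1 spread per gene shared by all 4 groups, also in tests within 1 region or label. They are on the TMM scale, which adjusts for RNA composition. Without that adjustment the median of all genes was 0.25 higher (log2) with tamoxifen in cortex and 0.27 higher in hippocampus than in cortex, so plain CPM sits high in hippocampal samples and in sample B of cortical tamoxifen. That cortical sample stood apart: mitochondrial genes took 20.4% of its counts, against 29.9 to 31.5% in the other cortical samples. Its 5 oligodendrocyte markers summed to 23750 CPM, while those samples held 52660 to 67050 CPM, a sum made up mostly of Mbp and Mobp. Mbp and Mobp had their lowest cortical level in it. Mog (30.9 CPM against 18.4 to 27.7) and Mag (100.3 CPM against 57.25 to 86.3) had their highest there on the CPM scale, but not on the TMM scale. These 4 were named after their values were seen. The 6 inhibitory neuron markers of this sample summed to 245 CPM against 96.6 to 113 CPM. Myelin, astrocyte and microglial markers were present in all 8 samples, so these are not pure neuronal RNA. Tert, the targeted gene, stood at 0.473 and 1.11 CPM in cortical controls and 1.04 and 2.34 CPM with tamoxifen. In hippocampus it stood at 1.47 and 3.89 CPM in controls and 1.04 and 2.16 CPM with tamoxifen. Its groups overlapped in both regions, with edgeR adjusted p of 0.834 and 1, and whether transcripts of a transgene count under it is not given. In bulk samples like these, fewer cells of a type and less RNA per cell cannot be told apart.

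Chat, Chrm2 and Chrm4 were lower in hippocampal than in cortical samples, and the other 7 genes did not pass that edgeR test. DESeq2, an alternative test, also called Chrm1 and Chrm3 lower (DESeq2 adjusted p = 0.0330 and 0.0325). It called 26.2% of all tested genes in that comparison. No gene of the 10 passed the test for tamoxifen in either region. In cortex 9 of 10 estimates were positive, and they rested on sample B of the tamoxifen group, where Ache, all 4 muscarinic and all 3 nicotinic genes had their highest CPM of the 8 samples (on the TMM scale Chrna7 was slightly higher in hippocampal tamoxifen B). Bche was the exception, with its lowest level there.

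**Figure D1:**
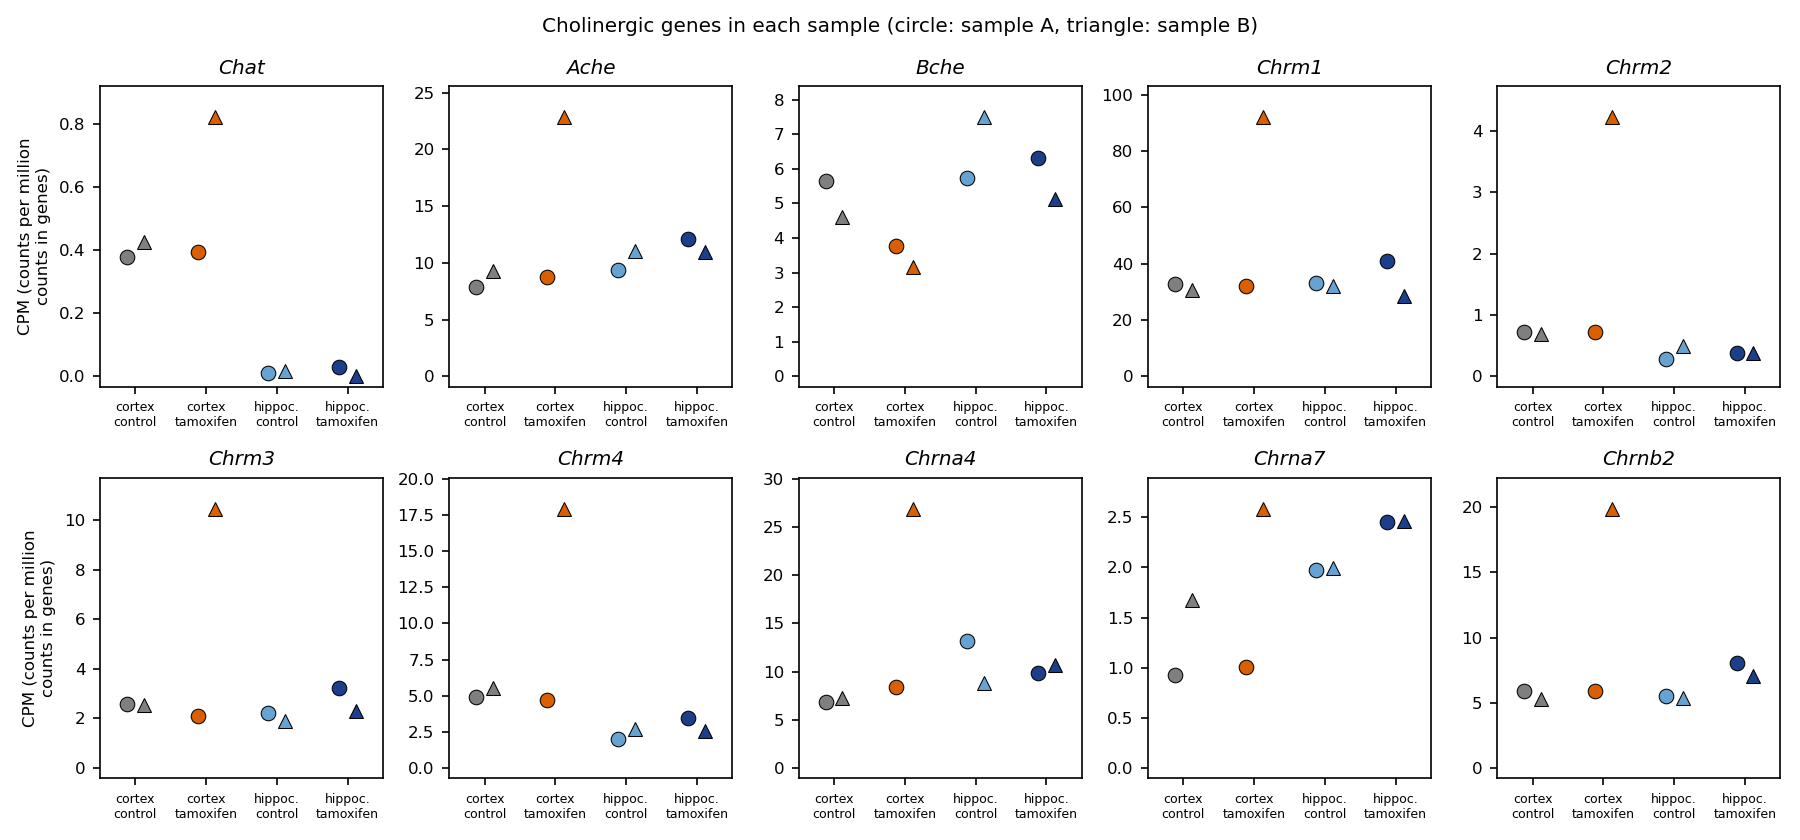
CPM of each of the 10 genes (vertical axes, 1 scale per gene) in the 4 groups, with sample A as a circle and sample B as a triangle. Sample B of cortical tamoxifen is the highest point for 9 genes and the lowest for Bche, and the 4 hippocampal samples lie near 0 for Chat.

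Chat encodes choline acetyltransferase, the enzyme that joins choline and an acetyl group. It stood at 0.380 and 0.425 CPM in cortical controls and 0.395 and 0.822 CPM in cortical tamoxifen, from 33 to 82 counts per sample. Hippocampal samples held 1 and 2 counts in controls and 3 and 0 with tamoxifen, or 0.00955, 0.0185, 0.0285 and 0 CPM. A count of 0 there allows up to 0.0277 CPM, by a limit of 3 counts that covers counting error only. The 4 hippocampal samples lay below the 4 cortical samples. Over the region the counts were 188 in cortex and 6 in hippocampus, a CPM ratio of 36.6 with an exact 95% interval of 16.5 to 101 for counting error alone. Chat fell in hippocampus with an edgeR adjusted p of 0.00554, among 3 of 10 genes called lower where 9.94% of all tested genes were (0 of 10 were called higher, against 8.42%). Without sample B of cortical tamoxifen the ratio was 28.4 (12.6 to 79.05). The call held in each of the 8 fits that left out 1 sample, with edgeR adjusted p from 0.00148 to 0.0391, and within each label (0.0327 for control, 0.0467 for tamoxifen). No fold with tamoxifen is given for hippocampus, where both groups are at or under the floor of 3 counts. In cortex the log2 fold change was 0.35 (SE 0.65, edgeR adjusted p = 0.905), with overlapping groups.

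The upstream sequence of Chat is shown because it is the gene with the largest regional difference of the 10, beside those of Chrm4, also lower in hippocampus, and of Bche, the gene of opposite sign in cortex. Each is 250 bases before the gene's start from RefSeq on GRCm38.p6, in the gene's direction, with CpG dinucleotides in capitals. The windows are chr14:32465910-32466159 on the minus strand for Chat, chr2:91921939-91922188 on the plus strand for Chrm4 and chr3:73708416-73708665 on the minus strand for Bche.
Chat: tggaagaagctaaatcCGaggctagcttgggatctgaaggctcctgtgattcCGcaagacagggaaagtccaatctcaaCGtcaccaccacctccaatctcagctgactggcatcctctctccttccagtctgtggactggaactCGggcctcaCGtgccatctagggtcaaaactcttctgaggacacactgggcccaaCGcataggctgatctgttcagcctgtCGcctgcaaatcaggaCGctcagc
Chrm4: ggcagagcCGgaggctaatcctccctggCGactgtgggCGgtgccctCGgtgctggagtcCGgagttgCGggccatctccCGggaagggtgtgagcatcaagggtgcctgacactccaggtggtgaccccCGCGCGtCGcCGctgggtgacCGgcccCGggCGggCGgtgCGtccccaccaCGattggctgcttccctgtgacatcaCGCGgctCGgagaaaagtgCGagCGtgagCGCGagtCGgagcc
Bche: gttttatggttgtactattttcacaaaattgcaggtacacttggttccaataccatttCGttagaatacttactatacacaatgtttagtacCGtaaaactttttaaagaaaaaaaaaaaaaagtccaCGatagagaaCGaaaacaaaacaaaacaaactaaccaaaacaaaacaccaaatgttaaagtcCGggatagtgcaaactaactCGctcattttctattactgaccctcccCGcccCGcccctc
The Chrm4 window holds 26 CpG dinucleotides, and those of Chat and Bche hold 8 each. GC content was 70% for Chrm4, 54.8% for Chat and 35.6% for Bche, and 5.41% of the 32851 RefSeq windows of this length had a lower content than Bche. The windows of Ache and Chrna4 had 73.6 and 74.4% GC, Chrna7 67.2%, Chrm3 61.2%, Chrnb2 59.6% and Chrm2 50%. A window was found for 9 of the 10 genes, Chrm1 being the other. The letters CACGTG, an E-box, read on both strands, occurred in the windows of Ache, Chrna7 and Chat (3 of 9) and in 6.02% of all windows. GGGCGG, a GC box, occurred in 6 of 9 and in 32.7% of all, and CCAAT in 4 of 9 and in 33.9% of all. These matches are descriptions of the letters and no evidence of binding.

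Ache encodes acetylcholinesterase, which ends the signal at the synapse by splitting acetylcholine. It stood at 7.85 and 9.28 CPM in cortical controls and 8.74 and 22.8 CPM in cortical tamoxifen. In hippocampus it stood at 9.37 and 11.01 CPM in controls and 12.1 and 10.9 CPM with tamoxifen. Only sample B of cortical tamoxifen was set off from the other 7, and the cortical groups overlapped. The log2 fold change with tamoxifen was 0.61 (SE 0.29, edgeR adjusted p = 0.83) in cortex and 0.21 (SE 0.29, adjusted p = 1) in hippocampus. Between regions it was -0.33 (SE 0.21, edgeR adjusted p = 0.287).

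Bche encodes butyrylcholinesterase, a related enzyme that splits acetylcholine and other choline esters. It stood at 5.64 and 4.62 CPM in cortical controls and 3.76 and 3.17 CPM with tamoxifen. Both treated cortical samples lay below both controls. For 15% of all tested genes the same held on the TMM scale, and for 6.29% on the CPM scale. The cortical log2 fold change was -0.72 (SE 0.28), which did not pass (edgeR adjusted p = 0.83). In hippocampus the values were 5.72 and 7.49 CPM in controls and 6.32 and 5.12 CPM with tamoxifen, with overlapping groups. The log2 fold change there was -0.18 (SE 0.28, edgeR adjusted p = 1). Per kilobase of exon, the ratio of Ache to Bche was 2.03 and 2.93 in cortical controls and 3.39 and 10.5 with tamoxifen. In hippocampus it was 2.39 and 2.14 in controls and 2.80 and 3.12 with tamoxifen. This ratio does not depend on library scaling. It was not tested, and neither gene passed the test for tamoxifen in either region.

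Among the muscarinic receptors, Chrm1 and Chrm3 couple mainly to Gq and phospholipase C, and Chrm2 and Chrm4 to Gi and Go, which lower cyclic AMP. Chrm1, the main muscarinic receptor of cortical and hippocampal principal neurons, stood at 32.7 and 30.7 CPM in cortical controls and 32.1 and 92.1 CPM with tamoxifen. In hippocampus it stood at 33.2 and 31.9 CPM in controls and 41.1 and 28.7 CPM with tamoxifen. Apart from cortical tamoxifen B, the 7 samples lay between 28.7 and 41.1 CPM. The cortical log2 fold change was 0.69 (SE 0.32, edgeR adjusted p = 0.83), the hippocampal one 0.13 (SE 0.32, adjusted p = 1) and that between regions -0.62 (SE 0.23, adjusted p = 0.101).

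Chrm3 stood at 2.59 and 2.53 CPM in cortical controls, 2.11 and 10.5 CPM in cortical tamoxifen. In hippocampus the controls held 2.20 and 1.89 CPM and the treated samples 3.21 and 2.30 CPM. The treated cortical samples held the lowest and the highest cortical value, while both treated hippocampal samples lay above both controls. The cortical log2 fold change was 0.97 (SE 0.52, edgeR adjusted p = 0.83) and the hippocampal one 0.46 (SE 0.52, adjusted p = 1). Between regions it was -0.97 (SE 0.37, edgeR adjusted p = 0.114).

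Chrm4 is known for its high level in striatal projection neurons. It stood at 4.88 and 5.51 CPM in cortical controls and 4.67 and 17.95 CPM with tamoxifen. In hippocampus the controls held 2.04 and 2.72 CPM and the treated samples 3.48 and 2.59 CPM. Every hippocampal sample lay below every cortical one, and the treated and control groups overlapped within each region. Between regions Chrm4 fell by 1.73 on the log2 scale in hippocampus (SE 0.32, edgeR adjusted p = 0.0162). The call was kept in 3 of 8 fits without 1 sample, and edgeR adjusted p reached 0.0709 in the others. Within 1 label it was not kept (edgeR adjusted p = 0.0922 for control and 0.0820 for tamoxifen). Those values compare 4 samples but use the spread of all 8. Without cortical tamoxifen B the log2 difference was -1.27 (SE 0.17, edgeR adjusted p = 0.00490). The tamoxifen log2 fold change was 0.81 (SE 0.45, edgeR adjusted p = 0.83) in cortex and 0.38 (SE 0.45, adjusted p = 1) in hippocampus.

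Chrm2, the muscarinic autoreceptor of cholinergic terminals that is also made by some interneurons, was the scarcest receptor gene of the 7 per kilobase of exon. It stood at 0.719 and 0.685 CPM in cortical controls and 0.718 and 4.22 CPM with tamoxifen. In hippocampus the controls held 0.287 and 0.490 CPM and the treated samples 0.380 and 0.379 CPM. Again the regions did not overlap, and 3 cortical samples were nearly equal beside the high treated one. Between regions Chrm2 fell by 1.97 on the log2 scale in hippocampus (SE 0.47, edgeR adjusted p = 0.0308). In the 8 fits without 1 sample the log2 difference ran from -2.315 to -1.27, and the call was lost in most of them. Within neither label was it kept, with the spread of all 8 samples (edgeR adjusted p = 0.270 for control and 0.0883 for tamoxifen). Without cortical tamoxifen B the log2 difference was -1.27 (SE 0.29, edgeR adjusted p = 0.0237). With tamoxifen the cortical log2 fold change was 1.48 (SE 0.64, edgeR adjusted p = 0.83), the largest estimate of the 10, and the hippocampal one -0.01 (SE 0.66, adjusted p = 1).

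Chat, Chrm2 and Chrm4 were thus the 3 genes with no overlap between regions, where 15.2% of all tested genes lay wholly lower in hippocampus on the TMM scale and 4.44% on the CPM scale. Per kilobase of exon, Chrm1 made up 52.0 to 62.3% of the 4 muscarinic transcripts in cortical samples and 65.8 to 71.7% in hippocampal samples. Chrm4 made up 21.0 to 24.1% and 10.3 to 13.9%, and Chrm2 1.37 to 2.56% and 0.662 to 1.15%. For these 3 genes the regional ranges did not overlap, and the shares were not tested. Chrm3 made up 15.0 to 21.7% in cortex and 15.1 to 19.3% in hippocampus. These shares depend on the exon models of the files. The Chrm3 model spans 1769 bases, 28.3% of its GENCODE M21 exons, and the Chrm4 model 192% of its own.

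**Figure D2:**
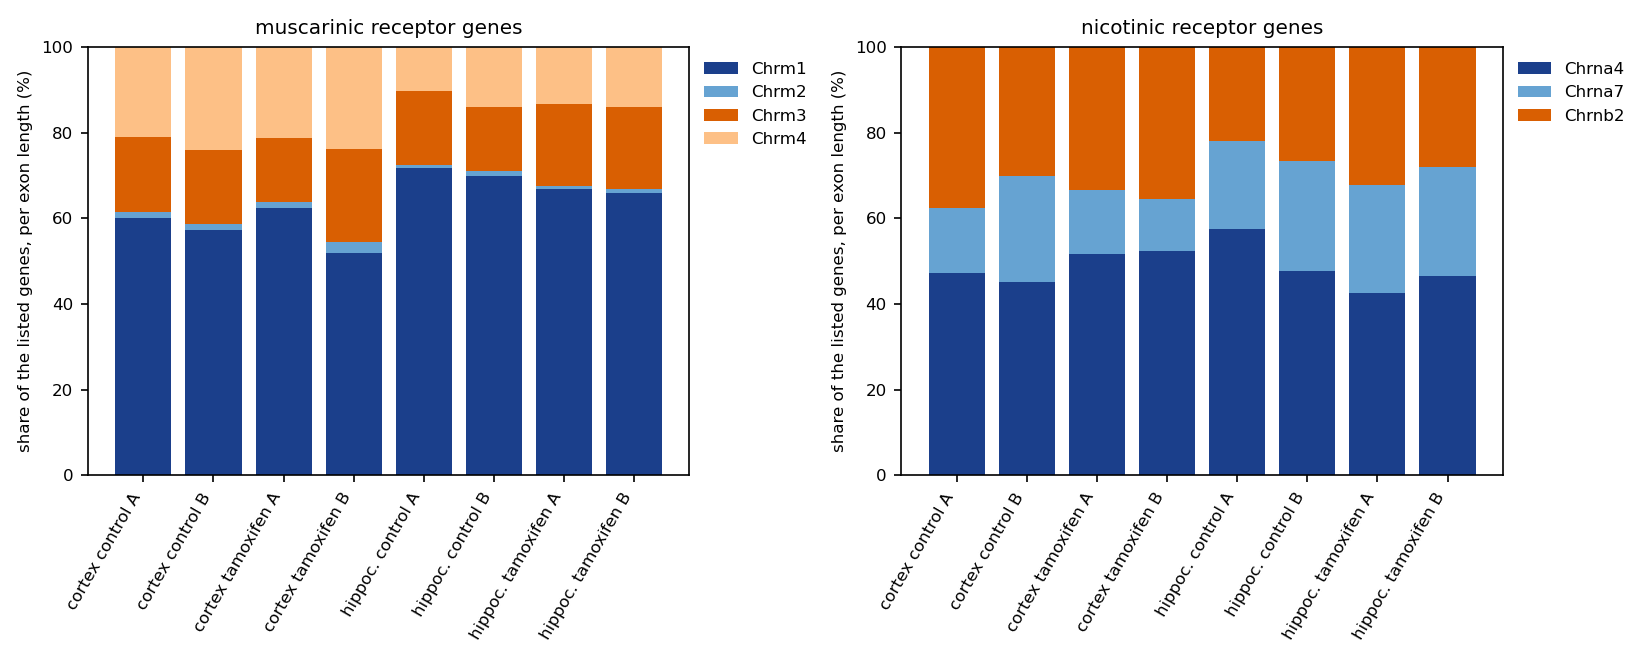
Share of each gene (vertical axis, percent, per kilobase of exon) among the 4 muscarinic genes on the left and the 3 nicotinic genes on the right, 1 bar per sample. Chrm4 takes 21.0 to 24.1% of the muscarinic bar in cortex and 10.3 to 13.9% in hippocampus, and the nicotinic shares overlap between regions.

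Chrna4 and Chrnb2 encode the subunits of the main high-affinity nicotinic receptor of the brain. Chrna4 stood at 6.80 and 7.24 CPM in cortical controls and 8.37 and 26.9 CPM with tamoxifen. In hippocampus the controls held 13.2 and 8.80 CPM and the treated samples 9.81 and 10.7 CPM. Both treated cortical samples lay above both controls, and the hippocampal groups overlapped. The cortical log2 fold change was 1.04 (SE 0.38, edgeR adjusted p = 0.83) and the hippocampal one -0.06 (SE 0.37, adjusted p = 1). The difference of these 2 effects was -1.09 (SE 0.53, edgeR adjusted p = 0.889).

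Chrnb2 stood at 5.91 and 5.28 CPM in cortical controls and 5.90 and 19.9 CPM with tamoxifen. In hippocampus the controls held 5.50 and 5.33 CPM and the treated samples 8.075 and 7.03 CPM. In hippocampus both treated samples lay above both controls, and in cortex sample A of tamoxifen lay between the controls. The cortical log2 fold change was 0.91 (SE 0.37, edgeR adjusted p = 0.83), the hippocampal one 0.51 (SE 0.36, adjusted p = 1) and that between regions -0.63 (SE 0.26, adjusted p = 0.132).

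Chrna7 encodes the subunit that forms a calcium-permeable receptor on its own. It stood at 0.925 and 1.68 CPM in cortical controls, 1.01 and 2.59 CPM in cortical tamoxifen. In hippocampus the controls held 1.98 and 2.00 CPM and the treated samples 2.45 and 2.47 CPM. The hippocampal pairs were tight and the treated pair was the higher, while the cortical groups overlapped. The cortical log2 fold change was 0.19 (SE 0.40, edgeR adjusted p = 0.914) and the hippocampal one 0.34 (SE 0.39, adjusted p = 1). Between regions it was 0.30 (SE 0.28, edgeR adjusted p = 0.486). Chrna7 made up 11.95 to 24.8% of the 3 nicotinic transcripts per kilobase in cortex and 20.5 to 25.7% in hippocampus, and Chrna4 45.1 to 52.5% and 42.6 to 57.5%. These shares also depend on the exon models. The Chrna7 and Chrnb2 models span 46.2 and 64.2% of their GENCODE M21 exons, and the Chrna4 model 98.2%.

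Across the 10 genes the median cortical log2 fold change with tamoxifen was 0.75, against 0.04 over all tested genes, and 9 of 10 were positive where 55.4% of all genes were. In hippocampus the median was 0.17 with 7 of 10 positive, where 48.7% of all genes were positive. Chat, at or under the floor of 3 counts there, is included in that median and among the positive estimates. In both regions 0 of 10 genes and 0% of all 18074 genes were called by edgeR. At an unadjusted p under 0.05 the cortical test held 899 genes, 4.97% of all, and 3 of the 10, which were Bche, Chrna4 and Chrnb2. The hippocampal test held 653 genes, 3.61% of all, and 0 of the 10. DESeq2 called 8 genes in each region, none of them among the 10. The difference between the regional effects was called for 0 of 10 genes and 0% of all genes by edgeR (981 genes, or 5.43%, at an unadjusted p under 0.05) and for 4 genes by DESeq2, none among the 10. Of the 10 differences 8 were negative, with Chat again included, as were 54.2% over all genes. Between regions 8 of 10 estimates were negative, against 49.9% of all genes, and 6 of 10 had an unadjusted p under 0.05, against 35.1%. Calls in that comparison covered 18.4% of all genes. The 2 tamoxifen comparisons share no control samples, but the main fit gives them 1 spread per gene. Fitted on the hippocampal groups only, the SE was 0.24 for Chrm3 and 0.21 for Chrna7, but larger for Chat, at the floor. Fitted on the cortical groups only, that of Chrm3 was 0.62. These edgeR fits called 0 of the 10 genes and 0 of all 18074. At an unadjusted p under 0.05 they held 1 of the 10 and 1004 genes in all in hippocampus, and 0 and 504 in cortex.

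**Figure D3:**
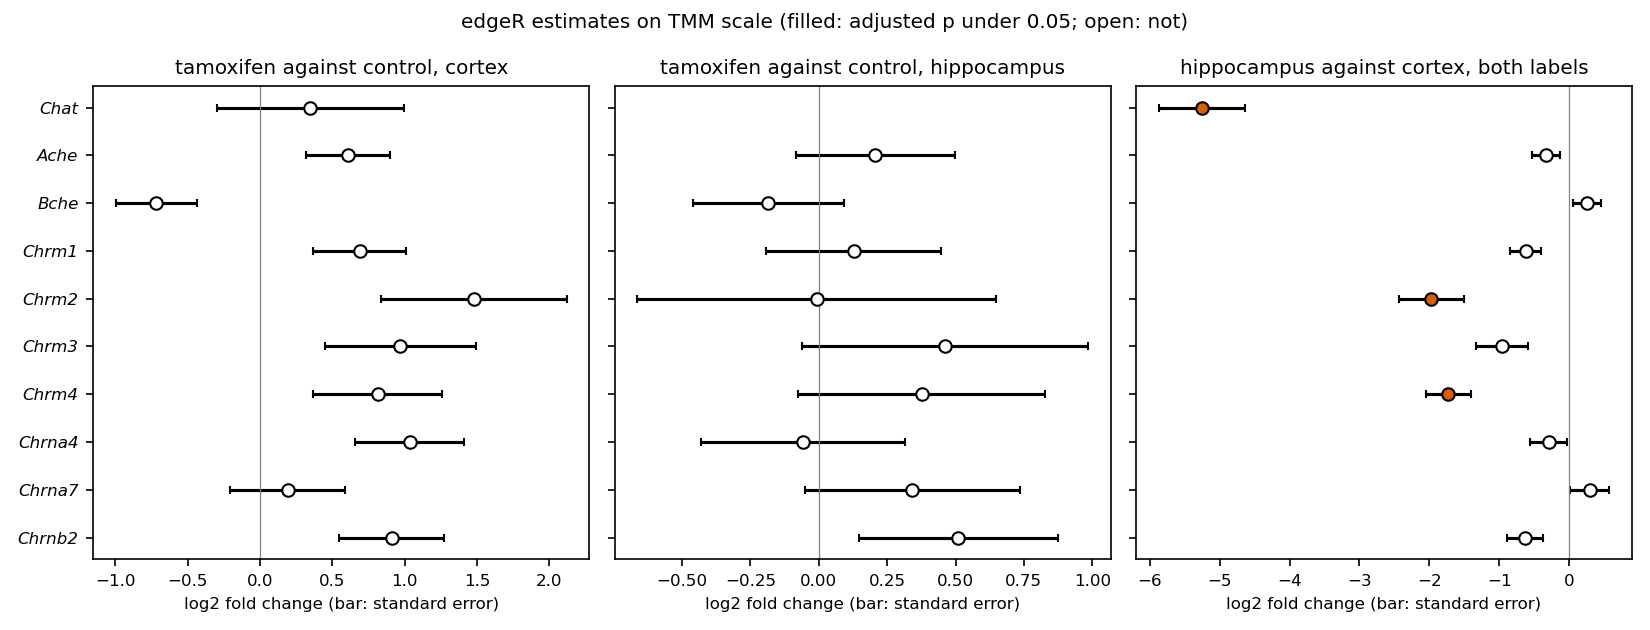
Log2 fold change with its standard error (horizontal axes, edgeR, TMM scale) for tamoxifen against control in cortex and in hippocampus, and for hippocampus against cortex. Chat, Chrm2 and Chrm4 are the filled points, called lower in hippocampus, and no tamoxifen estimate is filled.

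Groups that did not overlap on the TMM scale numbered 4 higher (Chrm1, Chrm2, Chrna4 and Chrnb2) and 1 lower (Bche) in cortex, where 16.2 and 15% of all genes behaved so. In hippocampus 4 were higher (Ache, Chrm3, Chrna7 and Chrnb2) and 0 lower, against 21 and 18.9% of all genes. On the CPM scale only Chrna4 was higher in cortex (20.8% of all genes), and 3 were higher in hippocampus (14.6% of all genes), the same as on the TMM scale without Ache.

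The cortical values turned on 1 sample. Sample B of cortical tamoxifen was at least 2-fold above sample A for 6 of the 10 genes on the TMM scale of log2(CPM + 0.5), where 3.13% of all genes were. The genes' median difference between these samples was 1.11 (log2), against 0.02 over all genes. In cortical control, hippocampal control and hippocampal tamoxifen 0 of 10 genes differed that much upward, against 0.26, 0.432 and 2.81% of all genes. Without that sample the cortical median of the 10 genes was 0.04, 6 were positive and 4 negative, and 0 of 10 were called. Without sample A of cortical tamoxifen 8 of 10 were called, 7 higher and Bche lower, beside 2038 genes in all. That fit holds 1 treated cortical sample and assumes that it varies like the other groups.

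**Figure D4:**
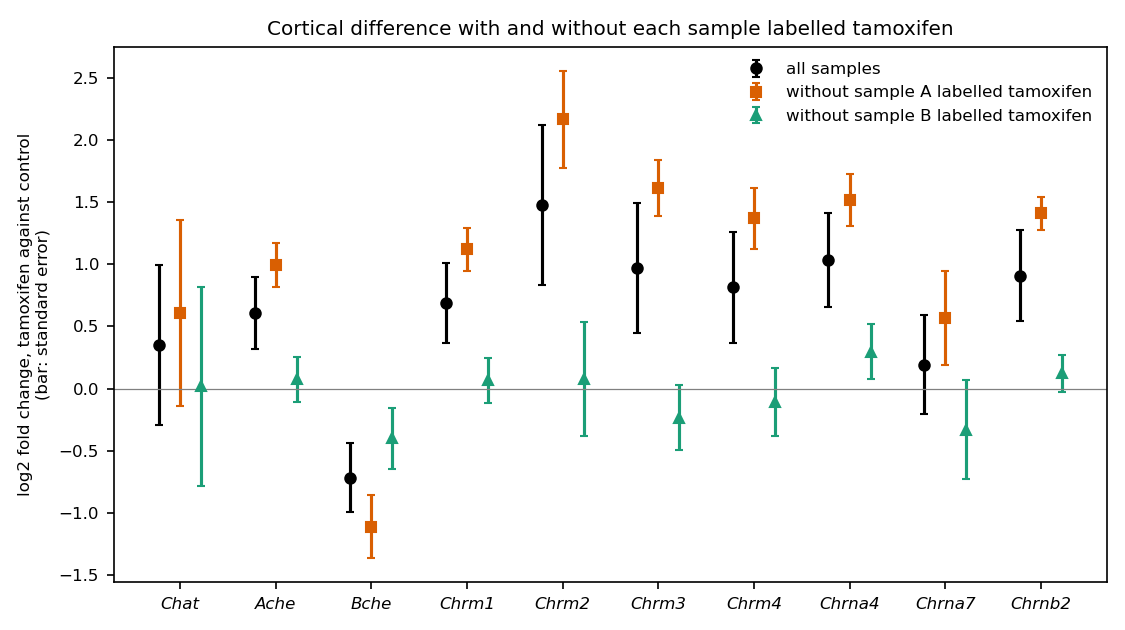
Cortical log2 fold change with tamoxifen and its standard error (vertical axis) for each gene with all samples, without treated sample A and without treated sample B. The estimates without sample B lie near 0 for most genes, and those without sample A are the farthest from 0 for all 10.

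On the CPM scale the sample also had the highest summed neuronal markers of the cortical samples. Its 5 excitatory neuron markers summed to 7954 CPM, of which Camk2a held 6675 CPM. Those of the remaining cortical samples summed to between 5349 and 6001 CPM. On the TMM scale its excitatory sum was not the highest, while its inhibitory and striatal sums were. Its 7 striatal markers summed to 458 CPM, compared with 162 to 246 CPM in those samples and 77.85 to 173 CPM in hippocampus. The part of these differences in the cholinergic values was not tested.

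The 3 genes lower in hippocampus moved beside markers of striatal and basal forebrain neurons. Of 7 striatal markers 6 were called lower in hippocampus and 0 higher, with a median log2 difference of -2.53. Over all tested genes 9.94% were called lower and 8.42% higher. The dopamine receptor Drd2 differed by -4.39 (SE 0.39), the phosphodiesterase Pde10a by -2.08 (SE 0.25) and the adenosine receptor Adora2a by -2.53 (SE 0.37). Ppp1r1b, the most abundant of the 7, was not called (-0.56, SE 0.28, edgeR adjusted p = 0.196). Of 7 genes of cholinergic neuron identity, 5 were called lower and 1 higher. Lhx8, a transcription factor of forebrain cholinergic neurons, held 9 to 27 counts per cortical sample and 1 or 2 per hippocampal sample (-3.31, SE 0.49, edgeR adjusted p = 0.00838). Gbx1 held 40 to 67 and 3 to 9 counts. Isl1 held 2 to 74 and 0 to 5 counts, so its regions overlapped on counts. Nkx2-1 was also called lower, and Zic4 was called higher (1.55, SE 0.42, edgeR adjusted p = 0.0435). Slc5a7, the choline transporter of cholinergic terminals, held 18 to 51 counts in cortex and 23 to 57 in hippocampus, and did not pass (0.03, SE 0.32, edgeR adjusted p = 0.956). The part of these cell types in the Chat, Chrm2 and Chrm4 values was not tested.

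**Figure D5:**
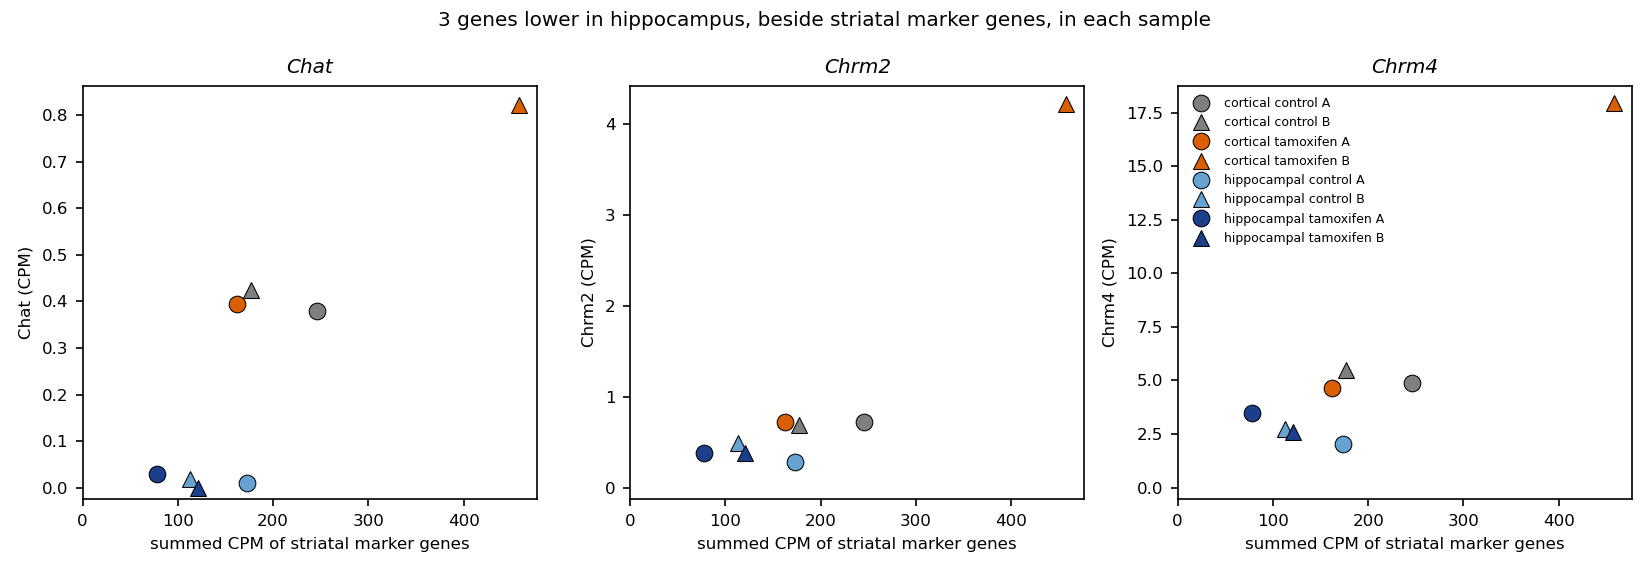
CPM of Chat, Chrm2 and Chrm4 (vertical axes) against the summed CPM of the 7 striatal marker genes (horizontal axes), 1 point per sample. The summed marker level runs from 77.85 to 173 CPM in hippocampus and from 162 to 458 CPM in cortex. The sums overlap between regions through Ppp1r1b, which holds 151 of the 173 CPM in hippocampal control A. Each of the other striatal markers, like the 3 genes, lay lower in every hippocampal sample than in every cortical one. Cortical tamoxifen B is highest on both axes.

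Of 14 further receptor genes, all with a row, 7 passed the count filter and were tested. Chrm5, the remaining muscarinic receptor, held 0, 1, 0 and 2 counts in cortical samples and 12, 12, 23 and 30 in hippocampal samples. It was called higher in hippocampus by edgeR (adjusted p = 0.0147), the only one of the 5 muscarinic genes to be so, with a CPM ratio of 21.99 and an exact 95% counting interval of 7.25 to 109. The nicotinic subunit gene Chrnb3 was called lower (-3.36, SE 0.83, edgeR adjusted p = 0.0340). Chrnb4 held 12, 5, 97 and 1 counts in cortical samples and 499, 256, 2 and 187 in hippocampal samples. The choroid plexus gene Ttr stood at 876, 3.88, 4701 and 3.18 CPM in the same cortical samples and 15950, 7345, 37.8 and 7488 CPM in the hippocampal ones, with the same samples high. That relation was not tested, and Chrnb4 did not pass (edgeR adjusted p = 0.279).

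Genes that act with the receptors were counted in 3 lists of 37 genes in all, of which 12 were called lower and 1 higher in hippocampus. Of 15 genes of muscarinic signalling 9 were called lower in hippocampus and 0 higher, where 9.94% of all tested genes were lower, with a median log2 difference of -0.49. Kcnq3, a subunit of the muscarine-sensitive potassium current, differed by -0.75 (SE 0.12) and Kcnj9, a G-protein-gated potassium channel subunit, by -1.38 (SE 0.23). Rgs4, which shortens G protein signals, differed by -1.36 (SE 0.24), and Gnaq, the G protein of Chrm1 and Chrm3, by -0.49 (SE 0.09). Of 10 genes of receptor assembly and anchoring 3 were called lower and 0 higher, namely Lypd6 (-0.88, SE 0.09), Lypd6b (-1.30, SE 0.19) and Lynx1 (-0.52, SE 0.12), which encode small membrane-bound modulators of nicotinic receptors. Of 12 genes of choline and acetyl supply 1 was called higher, the transporter-like gene Slc44a5 (1.59, SE 0.26), a share near the 8.42% of all tested genes called higher. With tamoxifen 0 of the 37 were called in either region by edgeR or DESeq2, and 4 in cortex and 0 in hippocampus had an unadjusted edgeR p under 0.05. Marker lists differed between regions as well: 6 of 6 inhibitory and 3 of 5 excitatory neuron markers were lower in hippocampus, and 5 of 6 astrocyte and 5 of 5 microglial markers higher. The part of this mixture in the signalling genes was not tested.

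The genes whose log2(CPM + 0.5) most resembled each of the 10 over the 8 samples were named by Pearson correlation among 12209 or 12210 genes. For Chrm1 they were Grin1 (0.997), which encodes the obligatory NMDA receptor subunit, Ankdd1b (0.994) and Kcns2 (0.993). For Chrm4 they were Inpp4a (0.995), Kctd16 (0.994) and Tchh (0.994), and for Chrnb2 Rab11fip2 (0.991), Opcml (0.987) and Resp18 (0.986). For Chat they were Dkkl1 (0.994), Cabyr (0.989) and Krt9 (0.989), and for Bche Il15 (0.988), Smtn (0.969) and Foxd1 (0.964). The 8 points share 1 high cortical sample and the region difference, so these values are a description only.

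In mm10 Chat lies at chr14:32408203-32465909, Chrm4 at chr2:91922189-91929829, Chrm2 at chr6:36388084-36528414 and Bche at chr3:73635808-73708415. Chat overlaps Gm2990, Chrm4 overlaps Mdk and Chrm2 overlaps 9330158H04Rik, each on the opposite strand, and Chrm2 also holds Mir490 on its own strand. The strand setting of the counting is not given, so reads of such pairs cannot be told apart with certainty.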

How the data were processed

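Each library's file gave, per the file headers, a whole-number count of reads per gene, not normalized, and an RPKM value by the authors, which recomputation from counts matched for 100% of values. RPKM entered no test. The submitters' processing notes name STAR, HTSeq and mm10. Their versions, the annotation release and the strand setting were not stated there. Reads that HTSeq assigned to no gene were left out: 27.5 to 35.4% of all counts aligned to several places, 3.64 to 7.93% lay outside genes and 1.38 to 1.86% were ambiguous. Libraries held 33236178 to 57195203 counts in genes.

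Counts of libraries 1 and 2 (sample A) and 3 and 4 (sample B) of each group were added, a choice made from these values: the 8 neighbouring pairs differed by 2.58 to 2.80 times the Poisson variance at 20 to 200 counts, and the 16 other pairs by 3.64 to 11.8 times. Shared animals are not recorded in the labels. The 8 samples were fitted in edgeR 4.0.16 (R 4.3.3) with filterByExpr, TMM, a mean per group and robust quasi-likelihood fits. Benjamini-Hochberg adjustment covered 18074 genes, with a threshold of 0.05. The SE is the log2 fold change over the square root of F. The comparison of regions averages both labels and takes regions as independent. Spread and likeness used log2(CPM + 0.5). Alternatives were RLE, no mitochondrial genes, no count filter, 16 libraries, a replicate block, only the groups compared, DESeq2 1.42.0 and each sample left out. Regions were also compared within each label, as contrasts in the fit of all 8 samples, whose spread they share. Chosen after seeing the data were no scaling factors and crossed letters as the block, which swap A and B of hippocampal tamoxifen.

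The 10 genes and the lists were chosen with earlier results of these data known. Named beside them were Tert, the cholinergic and identity lists, the leading striatal markers, up to 4 called genes of a list, and the 3 genes of highest correlation with a gene. Of 127 list genes 126 had a row, 2 of them matched by identifier; Slc18a3 was not analysed here, and some list genes are not reported by name. The test was checked on simulated data.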

Additional observations from a re-analysis of the deposited data

How the results depend on the processing

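The regional call of Chat was kept under every alternative run, and those of Chrm4 and Chrm2 were lost within each label and in most fits that left out 1 sample. DESeq2 and the fit of 16 libraries also called Chrm1 and Chrm3 lower in hippocampus, and the latter Chrnb2 as well. Over all genes, the regional count was 3318 in the main fit and 4732 with DESeq2. It was 1118 among control samples, 202 among tamoxifen samples, 8480 with 16 libraries, 2110 with a replicate block and 322 to 6153 when 1 sample was left out. The cortical count of 0 became 1 with no count filter, 562 with 16 libraries, 8 with DESeq2 and 0 to 2038 when 1 sample was left out. The hippocampal count of 0 became 318 with 16 libraries and 8 with DESeq2, and that of the difference of effects 867 and 4. With 16 libraries, p-values are too small if neighbours are repeats of 1 sample.

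Of 609 comparisons of the genes with their main values, 550 kept direction and side of the threshold, 25 reversed, 19 passed newly and 15 no longer passed. The 609 start from 38 main values and leave out crossed letters as the block. With crossed letters the hippocampal tamoxifen value of Chrm2 was 0.085, against -0.0085 in the main fit. None of the reversed log2 values passed the test, and some were as large as the main value. Among control samples the regional value was 0.25 for Chrna4 and -0.0122 for Bche. The hippocampal tamoxifen value of Chrm2 was 0.00121 with RLE, 0.00373 with only the groups compared, 0.00122 with DESeq2 and 0.0800 with the replicate block. For Chrna7 the difference of effects was -0.16 without scaling factors. With 1 sample left out, cortical tamoxifen values ran from -0.33 to 0.71 for Chrna7, -0.11 to 1.37 for Chrm4 and -0.24 to 1.61 for Chrm3. Hippocampal tamoxifen values ran from -0.29 to 0.22 for Chrna4, -0.40 to 0.0661 for Bche, -0.37 to 0.47 for Chrm2 and -0.12 to 0.33 for Chrm1. The difference of effects ran from -0.37 to 0.67 for Chrna7, -0.79 to 0.13 for Ache, -0.90 to 0.39 for Chrnb2, -0.99 to 0.0617 for Chrm1, -0.99 to 0.49 for Chrm4 and -1.15 to 0.70 for Chrm3. The regional value of Chrna4 ran from -0.53 to 0.0765. The cause was not tested.

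The letters A and B as given did not pair the samples: correlations of same-letter deviations between groups ran from -0.54 to 0.42. Those with hippocampal tamoxifen were all negative (-0.51, -0.54 and -0.33), and those among the other groups were 0.42, 0.34 and 0.02. Crossed letters swap A and B in hippocampal tamoxifen only. Whether samples are tied across groups was not tested. The replicate block changed no call of the 10 genes, and crossed letters as the replicate block gave 3830 regional calls and 0 in the other comparisons. With 2 samples a group, and 6 hippocampal Chat counts, small differences were not detectable.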
